A study of Homo sapiens with 10 samples.

Results

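The regions described here are 6273 narrow H3K27ac promoter regions that carried a peak in every library of the series. They were chosen by merging the 8 deposited peak lists wherever peaks overlapped by at least 1 bp on chromosomes 1 to 22 and X. A merged region was kept when all 8 lists had a peak in it, when it lay within 1 kb of a GENCODE 44 basic transcription start site (TSS) of a protein-coding gene, and when it was under 5000 bp wide. This left 6273 of 76044 merged regions. There were 17704 regions in all 8 lists and 8711 of these were protein-coding promoters, so that 2438 shared promoters were 5000 bp or wider and are called broad below. Because presence in the lists and merged width chose the regions, neither is a result.

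The lists came from ChIP-seq of SKBR3 and MDA-MB-453, both established human breast cancer lines with the HER2 receptor. Each line was either untreated or given the cytokine TWEAK at 10 ng/ml for 48 h, renewed after 24 h, and all cells were first starved for 8 h. There were 2 libraries in each of the 4 groups, which the methods call biological replicates, and 1 input per line served for background subtraction. What differs between the lines is known for these 2 lines only.

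H3K27ac is an acetyl mark that flanks the nucleosome-depleted start of active genes and also covers active enhancers. At housekeeping genes the mark usually forms a compact island around a CpG-rich start, whereas at cell identity genes it often spreads over several kilobases. TWEAK binds the receptor Fn14 and can activate canonical and noncanonical NF-κB signalling.

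The promoter DNA below illustrates the motifs counted further on. Each promoter was picked because it holds a motif, so the sequences do not show how often the letters recur. Each sequence below runs from 150 bases before to 30 bases after the RefSeq start (GRCh38.p14), 5′ to 3′ on the strand of the gene, and capitals mark the matches named for each promoter. For each motif the promoter shown is the highest ranked one with a single protein-coding gene, ranked by the mean over the 8 lists of its within-list percentile of fold enrichment.

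PURB, a nucleic acid binding protein, had 7 matches in capitals, to GGGCGG (SP and KLF factors), CCGGAAG (ETS factors) and TGACGTCA (CREB and ATF factors) or their reverse complements. It is shown because no other narrow promoter ranked higher.
PURB, chr7:44885501-44885680, minus strand: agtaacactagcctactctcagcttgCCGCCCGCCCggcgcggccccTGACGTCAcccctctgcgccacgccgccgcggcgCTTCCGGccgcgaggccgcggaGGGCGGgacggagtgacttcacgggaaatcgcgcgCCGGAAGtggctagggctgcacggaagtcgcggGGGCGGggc
SF1, a splicing factor for the branch point, held 3 copies of CCAAT, the letters bound by NF-Y.
SF1, chr11:64778513-64778692, minus strand: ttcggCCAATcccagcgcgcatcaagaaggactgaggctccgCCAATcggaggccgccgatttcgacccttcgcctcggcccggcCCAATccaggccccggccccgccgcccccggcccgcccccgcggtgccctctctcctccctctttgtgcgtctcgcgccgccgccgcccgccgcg
GOLGA1, a golgin of the Golgi membrane, held GCGCATGCG (NRF1) in both orientations, overlapping.
GOLGA1, chr9:124941054-124941233, minus strand: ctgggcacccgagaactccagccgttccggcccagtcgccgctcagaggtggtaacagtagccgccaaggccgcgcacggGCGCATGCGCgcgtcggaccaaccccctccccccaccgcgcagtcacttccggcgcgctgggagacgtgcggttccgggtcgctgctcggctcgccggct
CELSR3, an atypical cadherin, held AAGATGGCG (YY1) at 114 bases before the start, although most YY1 matches lay just after it.
CELSR3, chr3:48662857-48663036, minus strand: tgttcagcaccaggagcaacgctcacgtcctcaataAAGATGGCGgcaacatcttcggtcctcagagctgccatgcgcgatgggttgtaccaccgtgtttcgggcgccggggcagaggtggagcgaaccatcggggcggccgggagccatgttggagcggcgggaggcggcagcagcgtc
TMEM183A held TCTCGCGA (ZBTB33) in both orientations across its start.
TMEM183A, chr1:203007224-203007403, plus strand: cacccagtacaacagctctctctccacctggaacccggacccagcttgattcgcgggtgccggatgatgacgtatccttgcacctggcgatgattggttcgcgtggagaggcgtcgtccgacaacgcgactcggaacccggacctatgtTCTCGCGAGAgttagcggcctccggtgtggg
FOSB, an immediate early subunit of AP-1, held TATAAA, the letters recognised by the TATA-binding protein, with its first base 30 bases before the start, and is shown as the uncommon case among these promoters.
FOSB, chr19:45467846-45468025, plus strand: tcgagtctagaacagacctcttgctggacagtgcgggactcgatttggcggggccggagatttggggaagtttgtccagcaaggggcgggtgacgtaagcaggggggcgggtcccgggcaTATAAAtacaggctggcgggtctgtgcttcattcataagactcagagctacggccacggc

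The capitals differed in how often they recurred. Motifs were searched on both strands in RefSeq windows from 250 bases before to 50 bases after a start, with 1 window per gene and region. There were 5907 such windows in 5151 of the 6273 regions, and 16812 windows over all protein-coding promoters.

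CpG-rich starts were the rule. A window counted as CpG-rich with over 50% GC and a CpG ratio (observed over expected) above 0.6, and 5291 of the 5907 narrow windows met this (89.6%), against 81.4% of windows in broad promoters, 61.0% at promoters in 1 to 7 lists and 32.4% at promoters with no region within 1 kb. The median GC content was 65.7% in narrow and 67.7% in broad promoters. ETS matches were found in 1541 narrow windows (26.1%), against 16.3% of broad windows and 14.0% of all windows. The shares for YY1 were 5.76% in narrow, 3.17% in broad and 2.77% in all windows, and those for NRF1 were 4.91%, 3.34% and 2.67%. ZBTB33 followed the same order with 3.47%, 2.37% and 1.78%. The TATA box had the opposite order, with 3.78% of narrow, 7.73% of broad and 9.69% of all windows, and AP-1 (TGAGTCA or TGACTCA) was found in 2.42%, 3.59% and 3.94%. For the NF-κB consensus the shares lay close together, at 6.16%, 7.48% and 6.34%. The same held for NF-Y, with 38.2% in narrow, 38.2% in broad and 36.2% in all windows. SP and KLF letters were in 74.4% of narrow and 75.7% of broad windows, against 59.2% of all. The remaining motifs were ACTACAA (ZNF143), TGACGTCA and CACGTG (E-box). They were in 4.35%, 3.995% and 10.9% of narrow windows, in 3.38%, 3.97% and 9.88% of broad windows and in 3.03%, 2.62% and 8.50% of all. The shares were not adjusted for base composition, which differed between the classes.

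**Figure D1:**
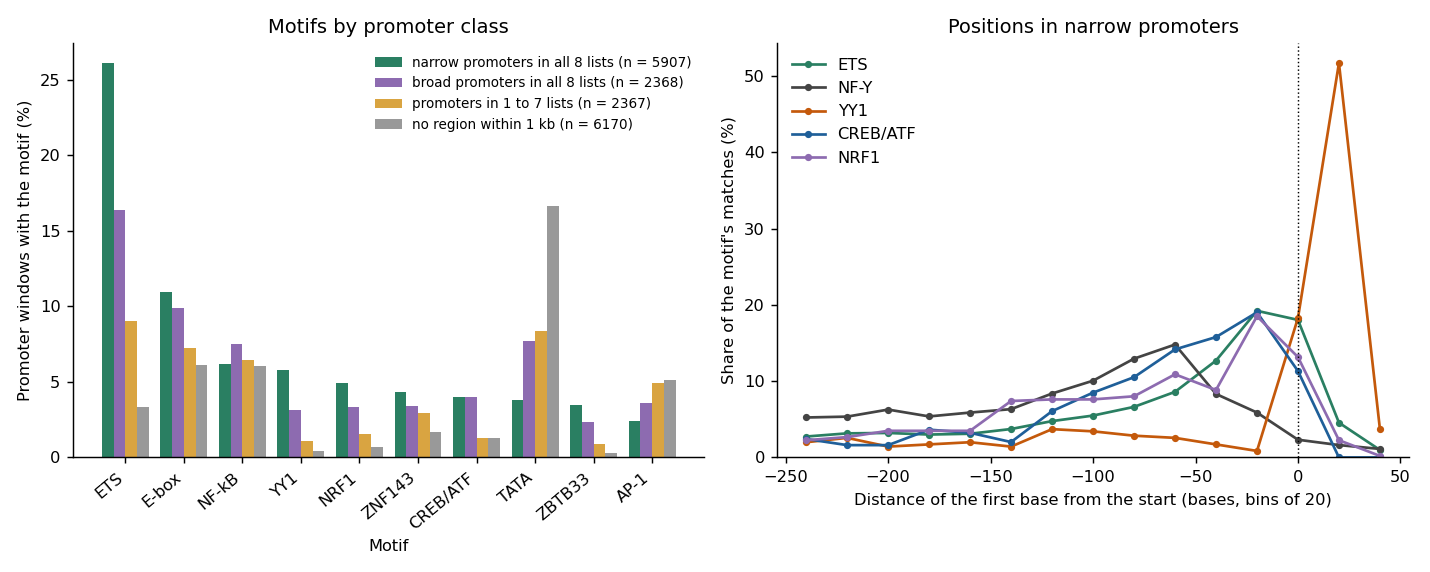
Left, share of promoter windows (%) that hold each of 10 motifs, by promoter class. Right, for ETS, NF-Y, YY1, CREB and NRF1 in narrow promoters, share of the motif's matches (%) in bins of 20 bases by the distance of the first base from the start. ETS stands at 26.1% in narrow and 16.3% in broad promoters, and the YY1 matches peak just after the start.

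The matches also had places. YY1 matches had a median first base at 11.5 bases after the start, and CREB matches one at -53, where negative positions lie before the start, with 73.3% of them in the last 100 bases before the start, where an even spread would put 33.3%. ETS matches had a median at -43, NRF1 at -59.5, NF-Y at -96 and NF-κB at -122. Of the TATA matches only 24.1% lay 35 to 20 bases before the start. The positions are those of letters and say nothing of binding.

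Some of these motifs went with a higher rank. Windows with the CREB letters (236) had a median mean percentile of 83.0, against 77.3 for those without, and those with ZBTB33 letters (205) had 82.5 against 77.4. For ETS the medians were 78.2 with and 77.3 without, and for SP and KLF 77.2 and 78.6. These are descriptions across windows that share libraries, and no test was made.

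The merged width, which the rule capped, had a median of 2563 bp (quartiles 1924 and 3399, with the narrowest at 483), and the start itself lay inside 6183 of them. In 4842 regions with a single gene and its canonical start inside, the region reached a median of 953.5 bp before and 1396.5 bp after the start, and 72.2% reached further into the gene than before it. At the limit, TMEM107 and the shared promoter of BRIX1 and RAD1 were the widest inside, 1 bp under 5000, while TAOK2 (5000 bp) and GOT2 (5001 bp) were just outside. Their mean percentiles were 80.1 and 76.7 inside and 73.2 and 70.3 outside.

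Many served 2 genes. A head-to-head pair, here starts of 2 protein-coding genes on opposite strands at most 1000 bp apart and pointing away from each other, was found in 817 of the 6273 regions (13.0%), in 254 of 2438 broad promoters (10.4%) and in 80 of 3637 promoters in 1 to 7 lists (2.20%). Head-to-head regions had a median mean percentile of 81.3 (quartiles 69.6 and 89.3) and the other narrow regions 75.6 (62.8 and 86.6). In respiratory complex I 48.7% of the narrow regions held such a pair, in replication genes 37.9% and in the mitochondrial ribosome 36.9%, against 11.4% for ZNF-numbered genes.

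The narrow promoters belonged to 7272 of 19962 protein-coding genes (36.4%). Machinery that every cell needs was held at a higher share. Aminoacyl-tRNA synthetases, which load amino acids onto tRNA, had a narrow shared promoter for 34 of 38 genes (89.5%). The mitochondrial ribosome had 65 of 78 (83.3%), and its other 13 genes had a broad one. In respiratory complex I, the first complex of the electron transport chain, 39 of 48 genes were narrow (81.3%) and the other 9 broad. Mediator, which links transcription factors to RNA polymerase II, had 24 of 30, splicing factors had 45 of 59 and the proteasome 38 of 50. Cilium and centrosome genes had 44 of 61, replication genes 28 of 40, peroxins 12 of 17, vesicle tethers 49 of 73, DNA repair genes 30 of 45, initiation factors 36 of 55, ubiquitin enzymes 36 of 55, centromere and kinetochore genes 26 of 40, and RNA polymerase subunits 21 of 33.

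The cytosolic ribosome differed from the mitochondrial one. Only 33 of its 84 genes had a narrow promoter (39.3%), close to the 36.4% of all genes, and 46 had a broad one with no narrow one. General transcription factors had 32 of 62 genes narrow, and 18 had no region. ZNF-numbered genes, a large zinc finger family, had 281 of 476 narrow (59.0%) and only 25 broad.

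Tissue-restricted families were rare. Olfactory receptors had 0 of 416 genes with a narrow promoter, HOX genes 0 of 39, keratins 2 of 55, collagens 2 of 44 and interleukin-named genes 8 of 85. The keratins were KRT23 and KRT4, and the collagens were COL1A1 and COL12A1.

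**Figure D2:**
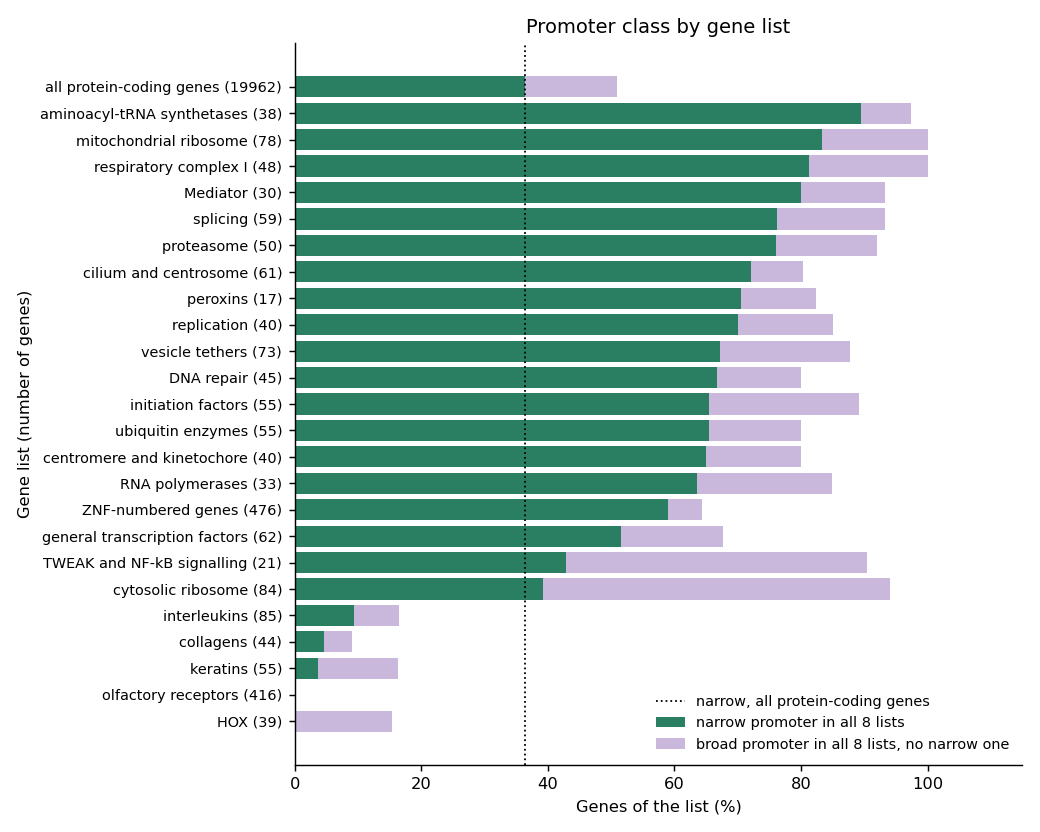
Share of each gene list (%) with a narrow promoter in all 8 lists (green) and, of the other genes, with a broad one (purple). The dotted line is the 36.4% of all protein-coding genes, which aminoacyl-tRNA synthetases exceed at 89.5% and olfactory receptors miss at 0.

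The marker genes fixed for the cell type fell mostly outside the narrow class. Of 10 luminal markers, 9 had a peak at a start in all 8 lists and 1, CDH1, in 4 of them. Most were broad (ERBB2, GATA3, FOXA1, KRT8, KRT18, KRT19, SPDEF and TFAP2A), and EPCAM was narrow. Of the markers of other cell types reported here, PTPRC and CD3E (blood), PECAM1 (endothelium) and COL3A1 and DCN (fibroblast) had a peak in 0 lists. The exceptions were CDH5, an endothelial cadherin, with fold enrichments of 11.1, 16.6, 15.8 and 14.4 in SKBR3 and 14.9, 15.3, 15.0 and 13.9 in MDA-MB-453, and COL1A1, a fibrillar collagen, with 9.36, 10.0, 12.5 and 6.69 in SKBR3 and 35.2, 34.7, 33.4 and 30.4 in MDA-MB-453. Both are narrow promoters in all 8 lists, and what their signal comes from was not tested.

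Levels are given as the fold enrichment over background that the peak caller wrote for the highest peak of a list in the region, in the order untreated replicate 1, untreated replicate 2, TWEAK replicate 1 and TWEAK replicate 2. Its within-list percentile ranks that peak among all peaks of the same list. The lists held 36199 to 51768 peaks, read depth is unknown, and the narrow promoters took 12.3% to 14.6% of the peaks in SKBR3 and 16.8% to 17.5% in MDA-MB-453. Log2 enrichment over the 6273 regions correlated between SKBR3 lists with r from 0.888 to 0.952, between MDA-MB-453 lists from 0.970 to 0.976 and between lines from 0.625 to 0.654. SKBR3 TWEAK replicate 2 stood apart outside these promoters, with a median percentile of 72.3 at distal regions shared by all lists, against 66.4 to 67.2 in the other SKBR3 lists, and in the narrow promoters it had the lowest median, 75.5.

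Narrow promoters ranked high in every list. The median percentile was 75.5 to 79.7 over the 8 lists, below the 84.8 to 87.8 of broad promoters and above the 59.9 to 72.3 of shared distal regions. In 4554 of the 6273 regions (72.6%) every list placed the peak above its 50th percentile, and in 91 (1.45%) none did. The median fold enrichment was 6.29, 7.72, 6.97 and 6.30 in SKBR3 and 9.60, 9.48, 9.54 and 9.33 in MDA-MB-453, a difference in the lists as a whole that quantile normalisation removed before any fit. Within a region the percentile spanned a median of 9.96 points over the 4 SKBR3 lists and 5.11 over the 4 MDA-MB-453 lists. Wider regions ranked higher, with median mean percentiles of 66.3 under 2000 bp (1767 regions), 77.7 from 2000 bp (2265), 82.6 from 3000 bp (1386) and 84.3 from 4000 bp (855).

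**Figure D3:**
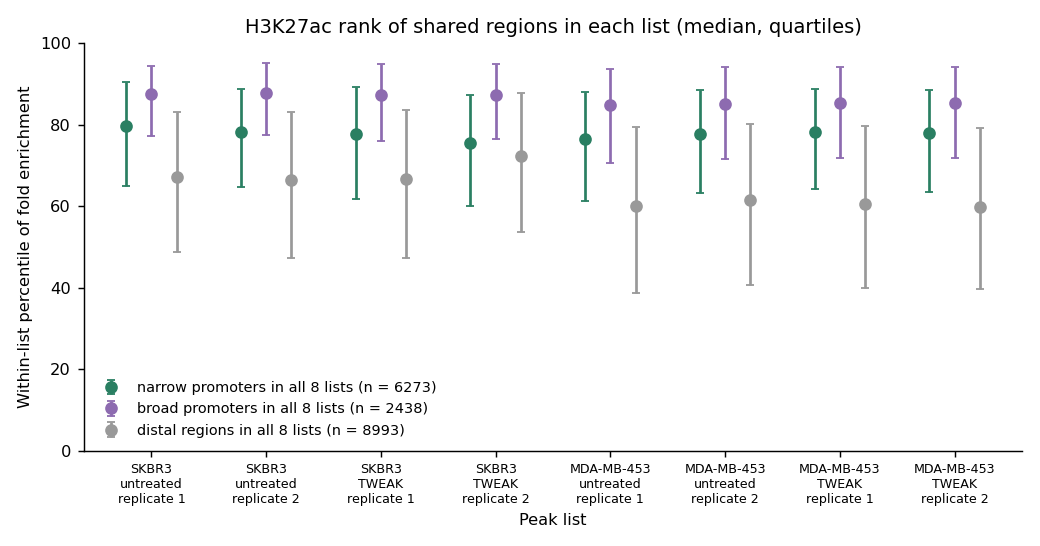
Within-list percentile of fold enrichment (y axis) in each of the 8 lists (x axis), as medians with quartiles as bars, for narrow promoters, broad promoters and distal regions in all lists. Narrow promoters have medians of 75.5 to 79.7, between the broad promoters and the distal regions in every list.

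The highest ranked promoter, PURB, had fold enrichments of 29.9, 28.2, 36.6 and 24.9 in SKBR3 and 37.2, 40.4, 36.4 and 35.0 in MDA-MB-453, and never fell below the 99.6th percentile. MPZL3 had 22.6, 32.2, 25.4 and 26.9 in SKBR3 and 40.6, 41.1, 42.1 and 36.6 in MDA-MB-453. The shared promoter of GART, an enzyme of purine synthesis, and SON, a splicing protein, had 23.4, 29.0, 33.9 and 27.1 in SKBR3 and 39.0, 32.4, 33.6 and 29.7 in MDA-MB-453. PPP4R3A, a regulatory subunit of protein phosphatase 4, and SF1 completed the 5 highest, each with a mean percentile of 99.6.

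The 5 lowest were low on average but not in every list. BEST3, a bestrophin channel, had 2.75, 2.73, 2.63 and 3.03 in SKBR3 and 3.18, 2.97, 2.94 and 3.16 in MDA-MB-453, a mean percentile of 13.9. SAMHD1, which hydrolyses dNTPs, had 2.36, 2.31, 2.45 and 2.22 in SKBR3 and 3.80, 2.88, 4.21 and 3.41 in MDA-MB-453. The region listed for ACTB, the cytoplasmic actin gene, had 2.65 to 3.39 over the 8 lists. At chr7:5561591-5563477 it did not reach the nearest basic start, at position 5563902. It covered no start of ACTB, so its values are not the level at an ACTB start. MTSS1 and FMO5 had mean percentiles of 19.4 and 21.3. The highest percentile in a single list was 45.0 for FMO5, 41.9 for SAMHD1, 41.5 for MTSS1 and 31.9 for ACTB.

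Leaving aside the 4 study genes (92.3), the splicing regions had, of the gene lists, the highest median mean percentile, 88.3, followed by general transcription factors (87.3) and ubiquitin enzymes (86.1), against 76.3 over all narrow promoters. SRSF5 and SRSF2, which encode SR splicing factors, had mean percentiles of 97.1 and 96.9, and GTF2A1, a subunit of TFIIA, had 99.5. The mitochondrial ribosome had a median of 75.5, with MRPL53 at 93.4 and MRPS7 at 92.8. Respiratory complex I was led by NDUFA6 (96.1) and NDUFV3 (93.7), the proteasome by the assembly factor PSMG2 (94.2) and PSMA3 (92.8), and the tRNA synthetases by the mitochondrial enzyme WARS2 (96.9). Among the narrow ribosomal protein promoters RPS9 had 94.8. In DNA repair XRCC6, the Ku70 gene, had 94.1. MED29 (95.5) and MED14 (95.2), POLR2H (96.5) and POLR3D (90.9), CEP95 (99.4) and CEP44 (96.9), CENPN (96.7) and MIS12 (95.6), EIF2A (97.7) and EIF3A (97.6), CUL4A (96.8), TRAPPC6B (96.6) and EXOC8 (96.4), MCM9 (91.2) and RFC4 (90.3), PEX2 (93.0) and PEX7 (84.9), and ZNF487 (99.1) and ZNF248 (98.9) were the highest reported of the other lists.

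The study asked how TWEAK and its receptor Fn14 reshape enhancers in triple-negative breast cancer, for which these HER2 lines served as comparison, and here the level of each promoter was compared between TWEAK and untreated libraries. In SKBR3 the gene for the soluble interleukin-22 binding protein, IL22RA2, rose most. Its fold enrichment was 4.46 and 6.43 without and 18.0 and 24.3 with TWEAK, groups that did not overlap, and the log2 difference was 1.98 (SE 0.19, limma adjusted p = 0.00307). UVRAG, a protein of autophagy and endosome traffic, went from 5.004 and 4.54 to 13.5 and 17.5, a log2 difference of 1.73 (SE 0.21, limma adjusted p = 0.00744). ANKRD22, an ankyrin repeat protein, went from 2.97 and 4.71 to 7.92 and 13.6 (log2 difference 1.64, SE 0.27, limma adjusted p = 0.0211). In all, 11 narrow promoters rose in SKBR3 (0.175% of 6273, where 0.983% of the 17704 shared regions rose) and 3 fell (0.0478%, against 0.0678% of all shared regions). In either direction 1.05% of all shared regions passed, and at an unadjusted p under 0.05 there were 695 narrow promoters (11.1%, against 14.8% of all).

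ASB9, a substrate receptor of a ubiquitin ligase, went from 3.54 and 4.58 to 6.32 and 9.05 (log2 difference 1.02, SE 0.19, limma adjusted p = 0.0355). SLC26A1, a sulphate transporter, went from 4.53 and 4.24 to 9.37 and 7.71 (log2 difference 1.00, SE 0.16, limma adjusted p = 0.0214). The other 6 that rose are named after their values were seen. IKBKE, an IκB kinase-related kinase, went from 2.88 and 2.97 to 4.43 and 5.60 (log2 difference 0.85, SE 0.16, limma adjusted p = 0.0347). STAP2, a signalling adaptor, had a log2 difference of 0.96, RFFL, a RING ubiquitin ligase, of 0.84, AGTRAP, which binds the angiotensin receptor, of 0.80, TRAPPC3, a subunit of vesicle tethers, of 0.79 and ZNF480 of 0.75. For each of the 11, both TWEAK values lay above both untreated values. This follows largely from picking them by these same values, and the share of all narrow promoters that separate so is not given here.

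The 3 that fell were DIS3L2, an exonuclease for uridylated RNA, from 5.22 and 5.86 to 3.33 and 3.64 (log2 difference -0.80, SE 0.15, limma adjusted p = 0.0410), SSX2IP, a centrosome protein, from 5.76 and 7.64 to 4.17 and 4.65 (log2 difference -0.69, SE 0.14, limma adjusted p = 0.0433), and ZBTB44, a zinc finger protein, from 8.81 and 10.4 to 6.26 and 6.404 (log2 difference -0.66, SE 0.13, limma adjusted p = 0.0427). Again the groups did not overlap, which is no separate support because the same values picked them.

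These counts rested on single libraries and on whether the replicate number entered the fit. With that number as a block, 34 narrow promoters rose and 90 fell, a reverse of the balance above. Without SKBR3 untreated replicate 1, 14 rose and 9 fell, of which 6 were among the 14 above, and without SKBR3 TWEAK replicate 1, 50 rose and 306 fell, which took in all 14. Without SKBR3 untreated replicate 2 only IL22RA2 was left, and without SKBR3 TWEAK replicate 2, or without any 1 MDA-MB-453 library, which lend their spread to the fit, IL22RA2 and UVRAG were left and 0 fell. IL22RA2 passed the threshold in each of the 14 other settings.

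**Figure D4:**
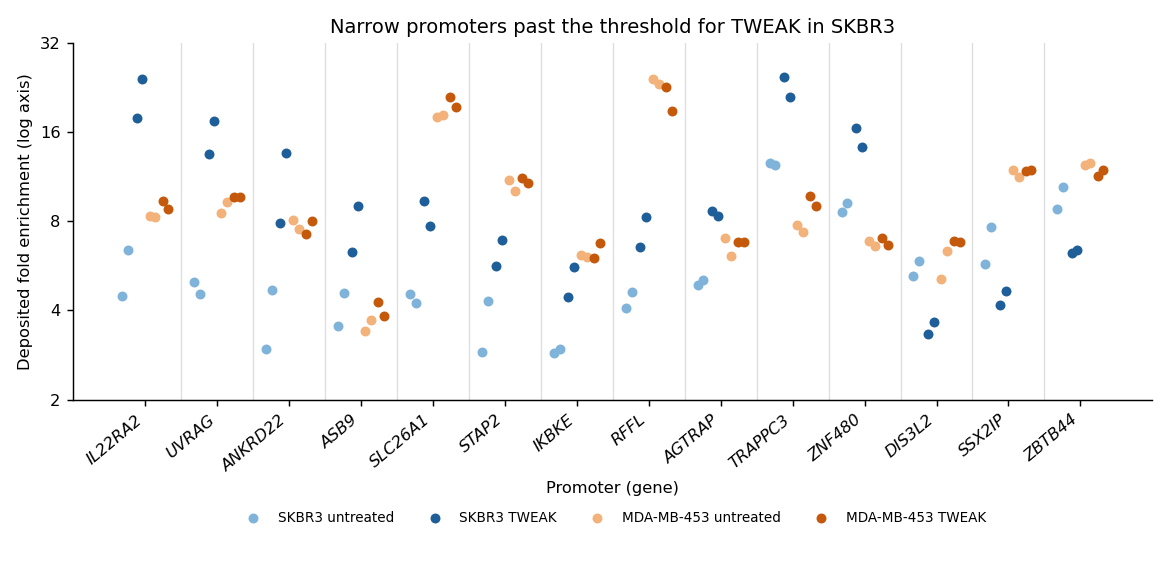
Deposited fold enrichment (log axis) at the 14 narrow promoters that passed the limma threshold for TWEAK in SKBR3, with 1 point per library and colours for the 4 groups. IL22RA2 goes from 4.46 and 6.43 to 18.0 and 24.3 in SKBR3 and stays between 8.28 and 9.39 in MDA-MB-453.

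AP-1 and NF-κB letters were counted in the 11 promoters that rose, as a description on few regions with no test. Within 500 bp of the start on each side, AP-1 letters were found in 7 of the 11, and in 483 of all 6273 narrow promoters (7.70%), and the NF-κB consensus in 4 of the 11, against 1404 (22.4%). Over the whole region they were in 8 and 7 of the 11, against 27.7% and 38.6% of all, but the 11 had a median width of 3466 bp and the longer a region the more letters it holds. Of the 3 that fell, 0 had AP-1 letters within 500 bp of the start and 1 had the NF-κB consensus. Over the whole region 1 of the 3 had AP-1 letters and 1 had the NF-κB consensus, in both cases SSX2IP. The sequences below show matches from anywhere in the regions, in capitals within their flanks, on the plus strand of hg38. The first group is AP-1.
ANKRD22, chr10:88851885-88851913, plus strand: gagccggtttcTGAGTCAtatttgctctg
SLC26A1, chr4:993470-993498, plus strand: ctacagattgcTGAGTCAtgggtttctcc
TRAPPC3, chr1:36149475-36149503, plus strand: ccgaccggcacTGACTCActgcgcctgcg
IL22RA2, chr6:137173280-137173308, plus strand: ggagaattgctTGAGTCAaggaggtgagg
The second group is NF-κB.
IL22RA2, chr6:137172573-137172602, plus strand: ttagtcactaGGGGATCTCCgctctgcctc
UVRAG, chr11:75813247-75813276, plus strand: gataatatttGGGATTTCCCagtgactcct
IKBKE, chr1:206469628-206469657, plus strand: tgtggccatgGGAAAGTCCCtccaacattc
ASB9, chrX:15269806-15269835, plus strand: cctgatgccaGGAAAGTCCCttggccccgc
TRAPPC3, chr1:36149812-36149841, plus strand: ggttggtcttGGAAAGTCCCtctttcgagc
STAP2, chr19:4338907-4338936, plus strand: agtgatcctaGGGAAATCCCcgcctctccg
The ANKRD22 AP-1 letters lay 52 bp from the start, those of SLC26A1 77 bp, those of TRAPPC3 0 bp and those of IL22RA2 353 bp. The NF-κB letters shown lay 90 bp from the start in STAP2, 267 bp in ASB9, 336 bp in TRAPPC3, 838 bp in IKBKE, 1061 bp in IL22RA2 and 1953 bp in UVRAG, the last 3 outside the window of 500 bp. The same 10 NF-κB letters stood in IKBKE, ASB9, TRAPPC3 and ANKRD22.

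In MDA-MB-453 none of the 6273 narrow promoters passed the threshold for TWEAK (limma, 0 of 17704 regions, 0.0%), and 40 had an unadjusted p under 0.05 (0.638%, against 1.16% of all shared regions). Both lines were tested with a shared estimate of the spread. Untreated and TWEAK replicates differed by a median of 0.091 and 0.10 log2 units in MDA-MB-453, against 0.209 and 0.231 in SKBR3. The test was thus strict for MDA-MB-453 and lenient for SKBR3, and the 0 does not show that TWEAK had no effect in MDA-MB-453. The promoters with the smallest p were, on the higher side, NFKBIE, which encodes an inhibitor of NF-κB, LZIC and NMNAT1 with a shared promoter, and INCENP, a chromosomal passenger protein. NFKBIE was at 3.10 and 3.79 without and at 5.81 and 5.67 with TWEAK, a log2 difference of 0.66 (SE 0.16, limma unadjusted p = 0.00191, adjusted p = 1), and its SKBR3 values were 4.39 and 4.404 without and 5.87 and 6.04 with TWEAK (log2 difference 0.47, limma adjusted p = 0.219). LZIC had 11.996 and 11.4 without and 16.03 and 15.7 with TWEAK, and INCENP 7.73 and 6.10 and then 10.3 and 10.1. On the lower side SARS1, the seryl-tRNA synthetase, had 13.9 and 11.4 without and 6.75 and 6.15 with TWEAK, KCNK15, a potassium channel, 10.8 and 10.6 and then 7.35 and 7.03, and CHMP4C, a subunit of ESCRT-III, 14.2 and 14.5 and then 10.8 and 10.0. None of these passed the correction.

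Whether TWEAK acted differently in the lines was tested as an interaction. No narrow promoter passed it (limma, 0 of 6273, against 0.0% of all shared regions higher and 0.00565% lower), and 356 had an unadjusted p under 0.05 (5.68%, against 7.92% of all). For IL22RA2 the MDA-MB-453 values were 8.32 and 8.28 without and 9.39 and 8.85 with TWEAK, and the TWEAK effect was 1.82 log2 units smaller than in SKBR3 (log2 difference of effects -1.82, SE 0.27, limma adjusted p = 0.131). For UVRAG that difference was -1.58 (SE 0.29, limma adjusted p = 0.193). These tests do not show that the effects differ between the lines. The outcome of this test changed when SKBR3 TWEAK replicate 1 was left out. A positive difference means a more positive TWEAK effect in MDA-MB-453, which can also come from a fall in SKBR3.

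Of 21 genes of TWEAK and NF-κB signalling, 9 had a narrow promoter in all lists (CHUK, CYLD, NFKB1, NFKBIB, NFKBIE, RELA, RELB, TNFAIP3 and TRAF3), and 0 of the 9 passed the threshold for TWEAK in either line. RELB, the noncanonical NF-κB subunit, had 17.4, 22.03, 21.9 and 19.8 in SKBR3 and 18.8, 23.5, 22.3 and 17.9 in MDA-MB-453, with a log2 difference for TWEAK of 0.02 in SKBR3 (SE 0.15) and 0.04 in MDA-MB-453 (SE 0.15). NFKB1 had 20.5, 21.1, 25.4 and 15.4 in SKBR3 and 21.4, 19.1, 19.7 and 17.9 in MDA-MB-453. RELA had 17.9, 19.6, 24.4 and 18.9 in SKBR3 and 18.2, 18.5, 16.3 and 16.7 in MDA-MB-453. The lowest percentile of these subunits in any list was 93.1 (RELA), with or without TWEAK.

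The inhibitors and adaptors ranked lower. TNFAIP3, the A20 gene, had 8.12, 8.45, 8.50 and 6.75 in SKBR3 and 4.18, 4.43, 5.25 and 5.53 in MDA-MB-453. CYLD, a deubiquitinase, had 3.99, 4.52, 6.81 and 6.01 in SKBR3 (log2 difference 0.64, limma adjusted p = 0.173) and 3.05, 4.11, 3.64 and 5.34 in MDA-MB-453. TRAF3, an adaptor that restrains the noncanonical pathway, had 5.59, 6.30, 7.70 and 7.11 in SKBR3 and 2.83, 3.28, 4.03 and 4.52 in MDA-MB-453, where the unadjusted limma p was 0.0133 and the adjusted p 1. NFKBIB, whose promoter is shared with SIRT2, had 9.46 to 12.3 over the 8 lists. CHUK, the IKKα gene, had 4.22, 5.11, 4.35 and 4.49 in SKBR3 and 9.35, 8.65, 9.94 and 7.45 in MDA-MB-453.

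Of the genes listed as study genes, NAMPT, RELB, ITGAV and KIF18A had a narrow promoter, although the paper's text does not name RELB. NAMPT, the rate-limiting enzyme of NAD+ salvage, had 18.7, 17.3, 21.5 and 15.7 in SKBR3 and 18.0, 16.1, 16.8 and 17.1 in MDA-MB-453, so that the TWEAK groups overlapped in SKBR3, with a log2 difference of -0.03 (SE 0.16, limma adjusted p = 0.946) and of 0.10 in MDA-MB-453 (SE 0.16, adjusted p = 1). ITGAV, the integrin alpha V gene, had 7.75 to 12.7 over the 8 lists, and KIF18A, a mitotic kinesin whose promoter is shared with METTL15, had 7.22 to 10.6 in SKBR3 and 15.3 to 17.5 in MDA-MB-453.

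Far more promoters passed the threshold between the lines than for TWEAK. Of the 6273 narrow promoters 2319 were higher in MDA-MB-453 (37.0%, against 33.9% of all shared regions) and 1485 were higher in SKBR3 (23.7%, against 31.9% of all), so that 61.0% of those past the limma threshold were higher in MDA-MB-453. In either direction 65.8% of all shared regions passed, and at an unadjusted p under 0.05 the narrow promoters numbered 4001 (63.8%, against 68.8% of all). In broad promoters 806 were higher in MDA-MB-453 and 813 in SKBR3, and without normalisation 1265 and 375 (77.1% higher in MDA-MB-453). Without normalisation, which shifts the median of all shared regions from 0.02 to 0.30 log2 units, 3504 narrow promoters were higher in MDA-MB-453 and 543 in SKBR3, or 86.6% of those called. The median log2 difference over narrow promoters was 0.09, against 0.02 over all shared regions, and the pairs were 0.07 and -0.03 with median centring and 0.41 and 0.30 without normalisation.

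The promoters with the largest differences towards MDA-MB-453 were PROCA1, ZNF704, AREG, SFXN3, VPS45 and SLFN5. AREG, the EGF receptor ligand amphiregulin, had fold enrichments of 2.95, 4.06, 2.87 and 3.19 in SKBR3 and 20.5, 20.2, 18.7 and 17.8 in MDA-MB-453 (log2 difference 2.35, SE 0.11, limma adjusted p = 9.31e-08). PROCA1 had 2.90, 4.39, 2.57 and 3.36 in SKBR3 and 21.5, 17.4, 20.2 and 19.9 in MDA-MB-453 (log2 difference 2.38, SE 0.14, limma adjusted p = 2.63e-07). SFXN3, a mitochondrial sideroflexin whose promoter is shared with PDZD7, had 2.97 to 3.65 in SKBR3 and 16.7 to 19.7 in MDA-MB-453. ZNF704 had 2.44 to 3.96 and 15.8 to 18.7, VPS45, a regulator of vesicle fusion, 3.48 to 5.13 and 23.3 to 26.9, and SLFN5, of the Schlafen family, 3.49 to 5.26 and 20.9 to 24.2. No library of 1 line reached a value of the other at these genes, which were picked by this difference. Of all narrow promoters, 27.1% had every MDA-MB-453 percentile above every SKBR3 percentile, and 27.5% had the reverse.

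Towards SKBR3 the largest were FAR2, NCK2, SPECC1, SLC66A3, IL6ST and YBX3. FAR2, a fatty acyl-CoA reductase, had 12.7, 14.1, 14.1 and 9.38 in SKBR3 and 3.37, 3.06, 2.87 and 2.88 in MDA-MB-453 (log2 difference -2.25, SE 0.12, limma adjusted p = 2.37e-07). NCK2, an SH2 and SH3 adaptor, had 21.1, 22.2, 25.4 and 13.1 in SKBR3 and 5.18, 6.01, 5.32 and 4.95 in MDA-MB-453 (log2 difference -2.18, SE 0.15, limma adjusted p = 8.16e-07). IL6ST, which encodes gp130, the shared receptor of the interleukin-6 family, had 9.87, 8.37, 17.1 and 14.9 in SKBR3 and 3.21, 2.85, 3.38 and 4.23 in MDA-MB-453, a log2 difference of -2.06 (SE 0.14, limma adjusted p = 7.75e-07). Its 2 TWEAK values in SKBR3 lay above the untreated ones, and the log2 difference for TWEAK was 0.78 (SE 0.20, limma adjusted p = 0.113). SPECC1, SLC66A3 and YBX3, a cold shock domain protein, had 10.3 to 19.3 in SKBR3 and 3.33 to 4.76 in MDA-MB-453.

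**Figure D5:**
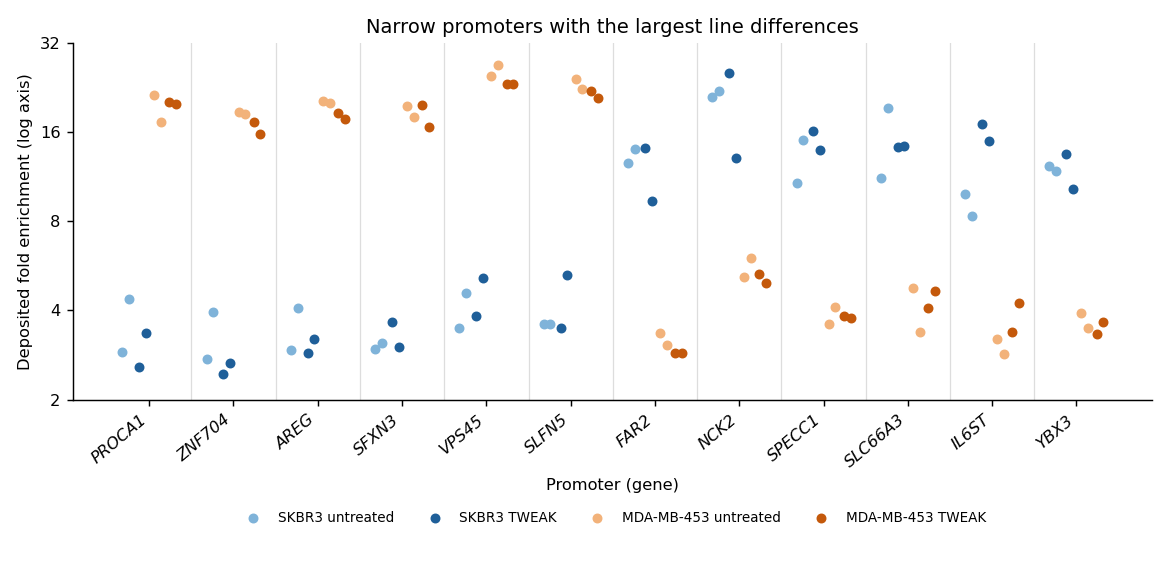
Deposited fold enrichment (log axis) at the 12 narrow promoters with the largest line differences, with 1 point per library. AREG has 2.87 to 4.06 in SKBR3 and 17.8 to 20.5 in MDA-MB-453, and FAR2 has 9.38 to 14.1 and 2.87 to 3.37.

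Some gene lists leaned to a line more than the narrow promoters as a whole. Of these, 37.0% were higher in MDA-MB-453 and 23.7% in SKBR3. Of the 9 narrow promoters of TWEAK and NF-κB signalling, 8 were higher in SKBR3 and CHUK was higher in MDA-MB-453, with a median log2 difference of -0.45. This held under median centring, and without normalisation 3 stayed higher in SKBR3 and the median was -0.20. Of 41 proteasome regions 20 were higher in SKBR3 and 5 in MDA-MB-453 (median -0.30). Without normalisation these were 7 and 14, in a setting where the median of all shared regions was 0.30. Of 46 cilium and centrosome regions 22 were higher in MDA-MB-453 and 2 in SKBR3 (median 0.27), and of 29 replication regions 17 and 5 (median 0.32). Relative to the median of all shared regions, the proteasome stood at -0.23, cilium and centrosome at 0.30 and replication at 0.35. Median centring shifts every region of a library by the same amount. The relative values are therefore bound to be the same with it and without normalisation, which is no separate support. Other lists lay near the shares of all narrow promoters. ZNF-numbered genes had 117 of 280 higher in MDA-MB-453 and 59 in SKBR3. Of 65 mitochondrial ribosome regions 22 were higher in MDA-MB-453 and 18 in SKBR3, and without normalisation these were 32 and 2.

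By chromosome the median log2 difference of the narrow promoters ran from 0.23 on chromosomes 6 and 4 to -0.07 on chromosome 20 and -0.08 on chromosome 21. On chromosome 6, 156 of 336 narrow promoters were higher in MDA-MB-453 and 62 in SKBR3, and on chromosome 20 the counts were 35 and 54 of 155. The other shared regions had medians of 0.03 on chromosome 6 and -0.13 on chromosome 20. What the differences between chromosomes come from was not tested.

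Covered width is given as a description, because the rule caps the merged width. The median width covered was 1492 to 1646 bp per region in SKBR3 and 1949 to 1998 bp in MDA-MB-453. For TWEAK in SKBR3 the fit over widths placed 3 narrow promoters past the threshold as wider (0.0478%, against 0.153% of all shared regions). It placed 4 as narrower (0.0638%, against 0.0508% of all). In MDA-MB-453 it placed 0 narrow promoters, against 0.00565% of all shared regions. The calls in SKBR3 rested on single libraries, with 0 wider and 0 narrower without SKBR3 TWEAK replicate 2 or without any 1 MDA-MB-453 library, 16 and 13 without SKBR3 untreated replicate 2, and 9 and 18 without SKBR3 TWEAK replicate 1. OAS3, an interferon-induced synthetase, was covered over 226 and 237 bp without and 1779 and 1484 bp with TWEAK. GFM1, a mitochondrial elongation factor, went from 499 and 565 to 2601 and 2699 bp, and FAAH2 from 374 and 419 to 1219 and 1596 bp. EPHB4, an ephrin receptor, went from 3977 and 2429 to 624 and 706 bp, TTC13 from 1072 and 1505 to 381 and 378 bp, and BICDL2 from 1213 and 1300 to 401 and 390 bp. TTC13 shares its region with ARV1, and the remaining narrower region, shared by RNASET2 and a gene without a symbol, went from 2533 and 1472 to 347 and 403 bp. Between the lines 2541 narrow promoters were covered more widely in MDA-MB-453 (40.5%, against 29.5% of all shared regions) and 618 in SKBR3 (9.85%, against 31.0%). Promoters that SKBR3 covers widely fall into the broad class by the rule, so these counts depend on the cap and are not a result. Among the broad promoters 474 were covered more widely in MDA-MB-453 and 1400 in SKBR3.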

How the data were processed

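H3K27ac ChIP-seq peak lists of 8 libraries were used, and the 2 inputs have no list. According to the methods the authors trimmed reads, aligned them with Bowtie2 to hg38, called peaks per library with MACS2 against the input and removed blacklisted regions, and versions and options are not given in the sources used here. The deposited lists hold a score (10 times −log10 q), the fold enrichment (a ratio over local background) and −log10 p and q values, all computed by the authors' peak caller. Read depth is unknown, so the counting error of a value is unknown too. Members, gene lists and motifs were chosen with earlier results of these data known. Peaks were merged and assigned to GENCODE 44 basic starts, and level was the log2 of the highest fold enrichment per list, quantile normalised. limma 3.58.1 (R 4.3.3) fitted 4 group means over the 17704 regions in all 8 lists, with a trended empirical Bayes spread and Benjamini-Hochberg adjustment over all of them, past 0.05. Width was the log2 of covered bp. The fit was tested on simulated data. Other settings were peaks with q under 1e-05, other scalings, a replicate block, other merging, start and width limits, and leaving out each library. The study compared reads, which were not analysed here. Promoter sequences were taken from RefSeq (GRCh38.p14), and all 16812 windows compared with hg38 were identical. The genes named are the 5 highest and 5 lowest by mean percentile, those past the threshold with the largest change (5 each way for TWEAK, or the 3 smallest p where none passed, and 6 each way for the lines), the top 2 of each gene list, the study's and pathway genes that are members, the 2 regions on each side of the width limit, and the highest ranked promoter per motif printed. Named outside this rule, after their values were seen, were the other 6 that rose with TWEAK and the 7 past the width threshold. Marker genes came from their own list. Some genes that this rule or the marker list names are not reported here.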

Additional observations from a re-analysis of the deposited data

How the results depend on the processing

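The number of narrow promoters was 4550 with peaks of q under 1e-05, 5959 after merging peaks up to 1 kb apart, 5920 with lists of equal size, 4032 under 3000 bp and 6306 to 6495 without 1 library. Head-to-head pairs made up 14.6% with q under 1e-05 and 11.8% under 3000 bp, CpG-rich windows 90.6% with q under 1e-05 and 53.8% over the whole merged region, and ETS matches 27.4% with q under 1e-05, 28.5% under 3000 bp and 44.6% over the whole region. For TWEAK in SKBR3, 11 promoters rose and 3 fell. With q under 1e-05 these were 6 and 0, and 1 fell with median centring and with no normalisation. Leaving out 1 library gave 1 to 50 that rose and 0 to 306 that fell. The replicate numbers are shared between groups, but the deviations of same-numbered libraries correlated at 0.45 in SKBR3 and -0.06 in MDA-MB-453 over 2 pairs each, and 2 pairs are too few to show whether the numbers pair the samples, so they were treated as names only. With the replicate block, 34 rose and 90 fell, and 0 and 0 changed in width in SKBR3. In that setting 2 promoters had a more negative TWEAK effect in MDA-MB-453 than in SKBR3. For the difference of the TWEAK effects 1 promoter was lower with median centring and 2 with no normalisation, and leaving out 1 library gave 0 to 16 higher and 0 to 8 lower. For the lines, no normalisation gave 3504 and 543, and leaving out 1 library 1974 to 2498 and 1194 to 1724. For width in SKBR3, 1 was wider with q under 1e-05 and 7 were narrower with median centring, and leaving out 1 library gave 0 to 16 wider and 0 to 18 narrower. Between lines these were 1870 to 2624 and 473 to 611. The cause of these changes was not tested. For TWEAK in MDA-MB-453 the count was 0 in every setting, and every setting shared the spread with the more variable SKBR3 libraries. Of the 14 promoters called for TWEAK level in SKBR3 and the 12 named for the lines, none changed direction in any setting that gave a value (the 7 named for width were not refitted one by one), and IKBKE, STAP2, RFFL, DIS3L2, SSX2IP and ZBTB44 missed the threshold under at least 1 other scaling. With 2 libraries per group and no read depth, a low fold enrichment carries an unknown counting error, and small changes can be missed.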
